A study of Mus musculus with 12 samples.

Results

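Out of 55450 genes in a total RNA sequencing table of mouse brain and liver, 39 are described here. They encode glutamate receptors and the scaffold and kinase proteins that hold them at the synapse. They were chosen by symbol for what they encode, with earlier results of these data known. They comprise 4 AMPA receptor genes (Gria1 to Gria4), 7 NMDA receptor genes (Grin1, Grin2a to Grin2d, Grin3a, Grin3b), 5 kainate receptor genes (Grik1 to Grik5), the delta receptor gene Grid1, 6 metabotropic receptor genes (Grm2, Grm3, Grm4, Grm5, Grm7, Grm8), 4 Dlg genes, 3 Shank genes, 3 Homer genes, 4 Dlgap genes and the kinase genes Camk2a and Camk2b. The study asked what the loss of Vaultrc5, the gene of a small non-coding vault RNA, does in mice. The table held 12 libraries, 3 from each of 2 tissues (brain and liver) and 2 genotypes, all from male mice aged 7 to 9 weeks with the genotype Vaultrc5+/+ or Vaultrc5-/-. The controls carry the word flx in their titles and the genotype label wild-type, which is the name used below. Which brain region was taken, and whether each library came from a separate animal, is not given in the labels, so p-values measure only the spread between these libraries.

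Glutamate is the main excitatory transmitter of the brain. AMPA, NMDA and kainate receptors are ion channels assembled from several subunits and opened by glutamate, whereas metabotropic receptors signal through G proteins. Beneath the receptors lies the postsynaptic density, in which Dlg proteins (PSD-95 and its relatives) bind receptor tails, Dlgap proteins link them to Shank proteins, and Shank and Homer proteins connect them to the actin cytoskeleton and to metabotropic receptors. CaMKII, the calcium-dependent kinase encoded by Camk2a and Camk2b, is among the most abundant proteins of this structure. The liver is not known for glutamate synapses but handles large amounts of glutamate in nitrogen metabolism.

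Promoter sequences from RefSeq (GRCm38.p6, from 250 bases before to 50 bases after the annotated start) matched 26 of the 39 genes by symbol. Gria1, Gria3, Grin2a, Grin2b, Grin3a, Grik1, Grid1, Grm4, Grm5, Shank1, Shank2, Dlgap2 and Camk2a had no entry in that table. A pair of motifs was searched on both strands, with overlapping matches counted: the core of RE1, the element bound by the repressor REST, which keeps neuronal genes silent outside neurons, spelled AGCACC and GGACAG with any 2 bases between them, and the GC box GGGCGG, bound by Sp1 and related factors. The RE1 core was found in 1 of the 26 windows (3.85%), that of Gria2, and in 16 of all 27025 promoter windows (0.0592%). The GC box was found in 17 of the 26 windows (65.4%) and in 10324 of all windows (38.2%). A match describes letters only, and whether any factor binds there was not measured. The window of Gria2 is shown for its RE1 core, that of Grin1 as the subunit shared by NMDA receptors, and those of Grin2c and Homer3 because their RNA levels moved together across the brain libraries. All are written 5′ to 3′ on the strand of the gene, with the matches in capitals.
Gria2: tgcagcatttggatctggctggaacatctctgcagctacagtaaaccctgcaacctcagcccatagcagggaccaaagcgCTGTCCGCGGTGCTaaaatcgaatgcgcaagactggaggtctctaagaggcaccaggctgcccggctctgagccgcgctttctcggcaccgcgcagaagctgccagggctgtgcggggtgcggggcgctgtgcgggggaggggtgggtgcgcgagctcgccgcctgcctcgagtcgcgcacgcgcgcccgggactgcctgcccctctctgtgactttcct
Grin1: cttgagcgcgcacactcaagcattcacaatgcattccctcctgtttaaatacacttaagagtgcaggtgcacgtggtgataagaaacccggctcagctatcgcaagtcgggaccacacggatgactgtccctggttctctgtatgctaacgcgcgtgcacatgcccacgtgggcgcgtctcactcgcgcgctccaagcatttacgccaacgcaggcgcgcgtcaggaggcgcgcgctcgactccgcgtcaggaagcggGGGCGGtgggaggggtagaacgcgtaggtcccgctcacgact
Grin2c: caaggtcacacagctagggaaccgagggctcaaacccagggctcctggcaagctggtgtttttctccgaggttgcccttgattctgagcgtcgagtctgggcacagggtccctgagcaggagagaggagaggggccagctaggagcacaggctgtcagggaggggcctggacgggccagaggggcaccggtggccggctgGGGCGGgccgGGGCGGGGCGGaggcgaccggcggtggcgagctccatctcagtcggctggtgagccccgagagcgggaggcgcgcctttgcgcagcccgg
Homer3: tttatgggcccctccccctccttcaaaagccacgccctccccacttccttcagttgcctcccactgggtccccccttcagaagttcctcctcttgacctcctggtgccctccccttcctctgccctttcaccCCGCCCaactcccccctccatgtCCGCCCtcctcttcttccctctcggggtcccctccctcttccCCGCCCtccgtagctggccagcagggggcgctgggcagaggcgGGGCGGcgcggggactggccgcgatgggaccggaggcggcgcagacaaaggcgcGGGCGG
The Gria2 window lies on the minus strand at chr3:80802786-80803085, and its RE1 core reads on the opposite strand with its leftmost base at position -170, counting the start as 1 and the base before it as -1. Grin1 lies on the minus strand at chr2:25319138-25319437, with 1 GC box at position 9. The Grin2c window, on the minus strand at chr11:115267194-115267493, has 3 GC boxes between positions -50 and -35, of which 2 share a base. Homer3, on the plus strand at chr8:70282749-70283048, has 5 GC boxes between positions -118 and 45, 3 of them read on the opposite strand. The Gria2 window had no GC box, and those of Grin1, Grin2c and Homer3 had no RE1 core.

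Each brain library summed to between 14844971 and 18567381 counts and each liver library to between 23247449 and 27155480. Counts of Vaultrc5 were 33, 39 and 48 in wild-type liver and 0 in every knockout library. In wild-type brain it had only 4, 1 and 4 counts, so it checks the brain labels less firmly. A count of 3, used here as the floor, equals 0.162 to 0.202 CPM in brain and 0.110 to 0.129 CPM in liver. These CPM are counts in proportion to the total of the library, and the floor covers counting error only. All other CPM values were adjusted by TMM. On that scale the mean floor was 0.158 CPM in wild-type liver and 0.165 CPM in knockout liver, and the fold bounds below use it. Hepatocyte markers summed to 55220 to 92200 CPM in liver and 0.299 to 2.20 CPM in brain, and 7 neuron markers to 3223 to 4181 CPM in brain and 25.7 to 34.6 CPM in liver.

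The brain libraries stood apart from each other in markers of brain regions. The sum of 8 cerebellum markers was 1502, 22.9 and 339.8 CPM in wild-type replicates 1, 2 and 3 and 1396, 25.6 and 591.3 CPM in knockout replicates 1, 2 and 3, so both libraries numbered 2 were nearly without it. The sum of 7 cortex and hippocampus markers ran the other way, at 278, 561 and 305 CPM in wild type and 304, 524 and 461 CPM in knockout. Wild-type replicate 3 alone had 121 CPM of 5 hindbrain markers, against at most 14.2 CPM in any other brain library. It also had the highest sum of 6 oligodendrocyte markers, 5361 CPM against 1581 to 2915 CPM in the other 5. The sum of 7 striatum markers was 198, 207 and 359 CPM in wild type and 510, 474 and 161 CPM in knockout, so knockout exceeded wild type in replicates 1 and 2 and fell short of it in replicate 3. Among liver libraries, knockout replicate 2 had the highest sum of 4 Kupffer cell markers, 291 CPM against 112 to 154 CPM in the other 5, and the lowest hepatocyte sum. The part that these differences play in each result below was not tested, except where a fit with the cerebellum marker level or without named libraries is given.

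**Figure D1:**
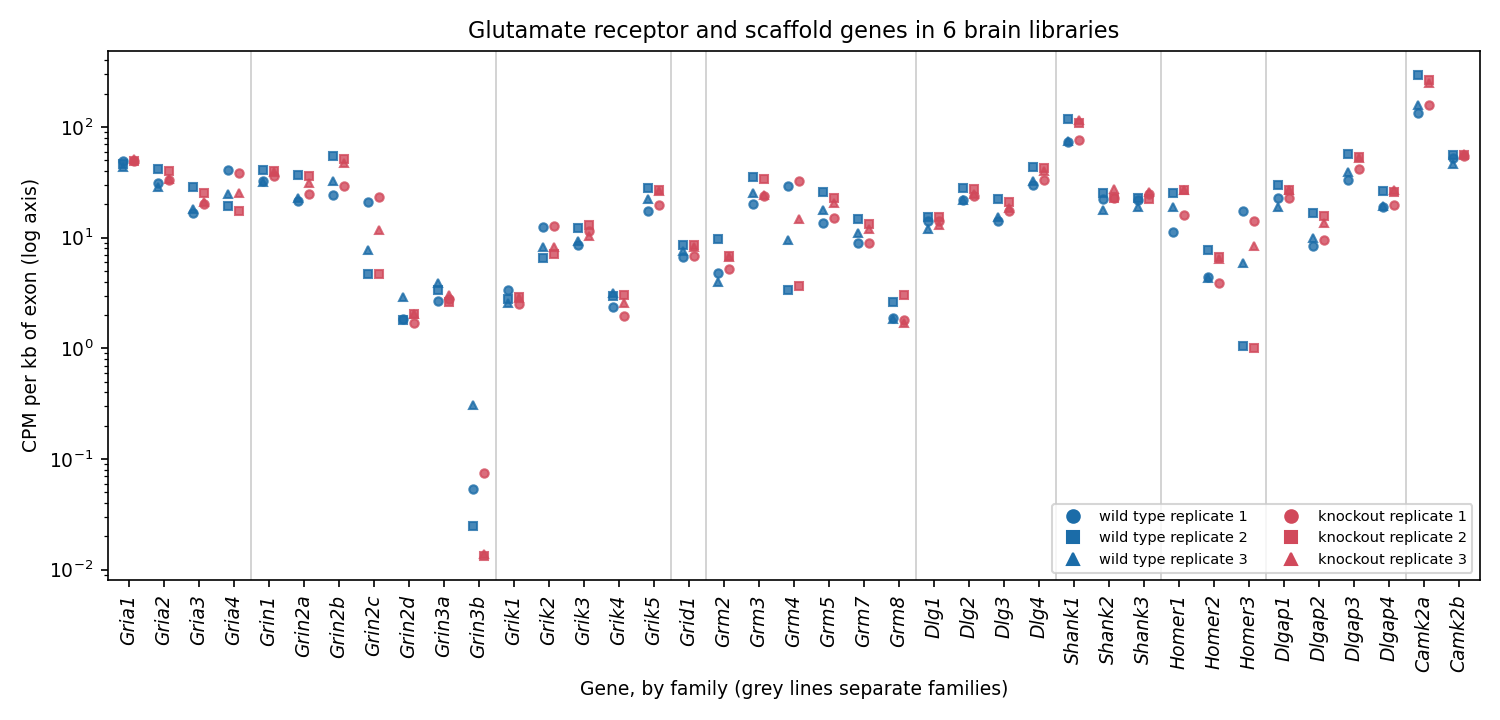
CPM per kilobase of exon (log axis) of the 39 genes in each of the 6 brain libraries, by family, with blue for wild type, red for knockout and a marker shape for each replicate number. Camk2a and Shank1 lie highest and Grin3b lowest, and the squares of replicate 2 fall far below the circles of replicate 1 for Grin2c, Grm4 and Homer3.

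Every one of the 39 genes had counts in all 6 brain libraries. To compare levels between genes, CPM were divided by the length of exon in kilobases, and all levels in this paragraph and the following 4 are on that scale. The kinase gene Camk2a was highest, at 134, 296 and 157 in wild-type and 158, 264 and 250 in knockout replicates 1 to 3. Shank1, a master scaffold of the postsynaptic density, followed at 72.6, 117 and 74.6 in wild type and 76.9, 109 and 115 in knockout. The ranges of these 2 genes over the 6 libraries did not overlap, nor did that of Shank1 with the third, Camk2b, at 46.5 to 57.2. From Camk2b downwards the neighbours overlapped: Gria1 had 43.6 to 51.4, Dlgap3 33.6 to 56.7, Grin2b 24.2 to 55.0, Dlg4 29.7 to 43.8, Grin1 32.2 to 40.8, Gria2 28.9 to 41.4 and Gria4 17.3 to 41.2. At the other end, Grin3b, which encodes a glycine-binding subunit known chiefly from motor neurons, had 0.0134 to 0.311, with its highest value in wild-type replicate 3, the library with hindbrain markers. Above it came Grm8 with 1.71 to 3.07, Grin2d with 1.68 to 2.94, Grik4 with 1.96 to 3.13 and Grik1 with 2.54 to 3.37, all overlapping each other.

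Among the AMPA receptor genes, the 4 subunits together had 139, 135 and 116 in wild-type and 141, 132 and 132 in knockout replicates 1 to 3. Gria1 gave 35.9% ± 1.77 (SD, n = 3) of this sum in wild-type brain. Gria2, whose edited subunit makes the channel impermeable to calcium, gave 26.0% ± 4.15 (SD, n = 3). Gria4, the subunit gene typical of cerebellum and brainstem, gave 29.7%, 14.2% and 21.4% in wild-type replicates 1 to 3 and 27.1%, 13.1% and 19.1% in the knockout ones.

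The 7 NMDA receptor genes together had 104, 142 and 102 in wild-type and 118, 137 and 134 in knockout libraries. Grin1, the obligatory subunit, held a narrow share of 28.6% to 31.4% over all 6 libraries. The shares of Grin2b and Grin2c ran in opposite ways, although shares of the same sum constrain each other. The share of Grin2b, the forebrain subunit, was 23.3%, 38.7% and 31.5% in wild type and 25.0%, 37.5% and 35.0% in knockout. That of Grin2c, the subunit of cerebellar granule cells, was 20.3%, 3.33% and 7.54% in wild type and 19.6%, 3.46% and 8.73% in knockout. Grin2a, the subunit of mature synapses, gave 23.0% ± 2.49 (SD, n = 3) in wild type.

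Of the kainate receptor genes, Grik5, which encodes a high-affinity subunit, gave the most, with 39.6% to 53.2% of the family over the 6 libraries. Grik2, the gene of a low-affinity subunit, gave 28.3%, 12.5% and 18.2% in wild type and 26.3%, 13.5% and 16.4% in knockout. Among the 6 metabotropic genes, Grm3, found on astrocytes as well as neurons, gave 33.5% ± 6.99 (SD, n = 3) and Grm5, the Homer-binding receptor, 23.7% ± 5.76 (SD, n = 3) in wild-type brain. Grm4, a presynaptic receptor known from the parallel fibres of the cerebellum, ran from 3.65% in wild-type replicate 2 to 37.5% in knockout replicate 1. Grid1, the single delta receptor gene of the set, had 6.72 to 8.68.

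Among scaffold genes, Dlg4, the gene of PSD-95, made up 38.9% ± 1.56 (SD, n = 3) of the 4 Dlg genes in wild type, Shank1 66.6% ± 4.47 (SD, n = 3) of the 3 Shank genes and Dlgap3 42.9% ± 2.58 (SD, n = 3) of the 4 Dlgap genes. Camk2a made up 77.6% ± 6.25 (SD, n = 3) of the kinase pair. Homer1, the forebrain member of its family, gave 34.1%, 74.3% and 64.9% in wild type and 46.7%, 77.8% and 64.6% in knockout. Homer3, known from Purkinje cells, gave 52.5%, 3.11% and 20.2% in wild type and 41.8%, 2.90% and 20.04% in knockout, so the leading Homer gene was Homer3 in wild-type replicate 1 and Homer1 in the other 5 libraries.

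The spread between brain libraries was set out on the CPM scale, for each gene against itself. Over the 6 brain libraries the coefficient of variation ran from 5.70% for Gria1 to 84.8% for Homer3, with a median of 19.99%, among the 38 genes with a mean of at least 1 CPM. Homer3 had 60.2, 3.64 and 20.2 CPM in wild-type and 49.0, 3.48 and 29.0 CPM in knockout replicates 1 to 3, a 17.3-fold range. Grm4 had 176, 19.9 and 56.7 CPM in wild type and 196, 21.8 and 89.0 CPM in knockout, and Grin2c had 106, 23.8 and 38.8 CPM against 117, 23.9 and 59.0 CPM. In all 3 genes both libraries numbered 1 were highest and both numbered 2 lowest. The ratio of replicate 1 to replicate 2 was 16.5 in wild type and 14.1 in knockout for Homer3, 8.80 and 9.01 for Grm4, 4.46 and 4.91 for Grin2c, and 2.14 and 2.20 for Gria4. Gria4 had 260, 121 and 156 CPM in wild type and 240, 109 and 159 CPM in knockout. The fifth most variable gene, Grm2, the presynaptic receptor of Golgi cells and cortical terminals, was instead highest in wild-type replicate 2, with 23.6, 47.9 and 19.3 CPM in wild type and 25.4, 33.7 and 32.5 CPM in knockout.

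**Figure D2:**
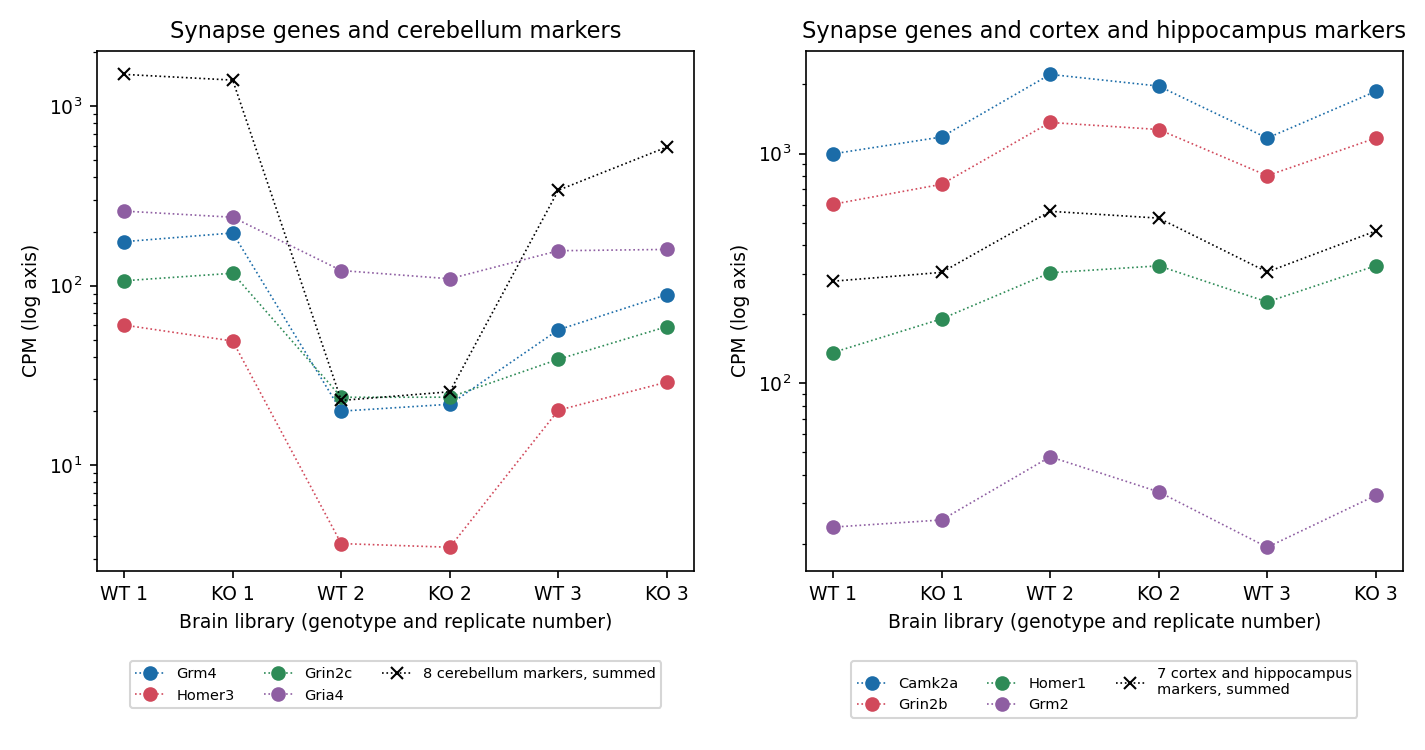
CPM (log axis) in the 6 brain libraries of Grm4, Homer3, Grin2c and Gria4 beside the summed cerebellum markers (left), and of Camk2a, Grin2b, Homer1 and Grm2 beside the summed cortex and hippocampus markers (right). Dotted lines only guide the eye, and the genes on the left are lowest in both libraries numbered 2, while Camk2a and Grin2b are highest there.

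Taken by number, 6 of the 38 genes with a mean of at least 10 counts (Gria1, Gria4, Grin2c, Grik2, Grm4 and Homer3) were higher in both libraries numbered 1 than in both numbered 2, against 33.2% of all genes. In 28 of the 38 both libraries numbered 1 were lower, against 32.8% of all genes, and in Grin2d, Grin3a, Grik1 and Shank3 the pairs overlapped. Camk2a and Grin2b, both typical of forebrain neurons, belong to the larger group. Camk2a had 998, 2213 and 1169 CPM in wild type and 1182, 1968 and 1868 CPM in knockout. Grin2b had 602, 1367 and 801 CPM in wild type and 735, 1274 and 1169 CPM in knockout. Replicate 2 exceeded replicate 1 by 2.22-fold and 1.67-fold for Camk2a in wild type and knockout, by 2.27-fold and 1.73-fold for Grin2b, by 2.22-fold and 1.70-fold for Homer1 and by 2.00-fold and 1.62-fold for Dlgap2. Of the 6 genes of the first group, Gria1 was nearly level between knockout replicates 1 and 2 (295.8 and 295.3 CPM). The same pairs of libraries differ in the cerebellum marker sums given above, whose part in this count was not tested. Fewer cells of a type and less RNA per cell cannot be told apart in such bulk samples.

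Between tissues, nearly the whole set was far higher in brain. Of the 38 genes tested in wild type, 37 were higher in brain by edgeR's quasi-likelihood test with Benjamini-Hochberg adjustment, against 43.9% of all genes tested, and none was lower. The 3 brain libraries lay wholly above the 3 liver libraries for 37 of the 38, Homer2 excepted, against 45.8% of all genes. Their median log2 fold change was 9.36, with a range from 0.56 to 15.02, beside a median of 0.21 over all 18850 genes. In knockout mice 38 of 38 were higher in brain (43.5% of all genes), 37 of them, again without Homer2, with no overlap between groups (45.9% of all genes), with a median of 9.60 beside 0.21. In both genotypes 37 of the 38 genes were called higher in brain (97.4%), as were 7608 of 18380 genes tested in both (41.4%). Counting genes with 0 liver counts at the bound that the floor allows, the medians were 7.80 in wild type and 7.62 in knockout. Grin3b, with 0.0440 to 1.02 CPM in brain and 0.0523 to 0.450 CPM in liver, was too low to be tested. The filter admits a gene with enough counts in 1 tissue alone, and within liver only 17 of the 39 had enough to be tested. For the others the call as higher in brain, and the lack of overlap, were therefore largely set by the filter. Scaling by library totals moved the median of all genes by 0.84 in wild type and 0.87 in knockout. It raised the share of all called genes that were higher in brain from 55.8% to 74.4% and from 55.3% to 74.9%. All 38 of the set were then called higher, against 61.7% of all genes tested in wild type and 61.8% in knockout.

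The largest differences were those of genes absent or nearly absent from liver. Grin3a, Grik1, Grm2, Grm3 and Grm5 had 0 counts in all 6 liver libraries. Against the floor, Grm5 was at least 1236-fold higher in wild-type brain (edgeR adjusted p = 5.59e-06) and at least 1215-fold higher in knockout brain, and Grm3 at least 518-fold and at least 506-fold. Grin1 had 316, 395 and 312 CPM in wild-type brain and 1 count in all wild-type livers together, a ratio of 19503 with a 95% interval from counting error of 3500.1 to 7.70e+05 (edgeR adjusted p = 7.06e-08). Grin2a had 388, 656 and 413 CPM in wild-type brain and also 1 liver count, a ratio of 27892 (5006 to 1.10e+06, edgeR adjusted p = 1.84e-07). In knockout liver both genes were at 0, and the brain level was at least 2274-fold higher for Grin1 and at least 3323-fold higher for Grin2a. Dlgap2 had 0 counts in wild-type liver, at least 456-fold lower than in wild-type brain, and Grm4 had 0 in knockout liver, at least 621-fold lower than in knockout brain. The large fitted folds of these genes depend on single liver counts, so no order among them is given. All of them passed the filter through brain alone, so their adjusted p-values add little to the counts themselves.

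At the other end stood scaffold genes, many of which are used at epithelial cell junctions too. Dlg1, the gene of SAP97, had 152, 166 and 130 CPM in wild-type brain and 91.9, 101 and 107 CPM in wild-type liver, without overlap and with a log2 fold change of 0.58 ± 0.12 (SE, edgeR adjusted p = 0.00289). In knockout mice it was 0.64 ± 0.13 (SE, edgeR adjusted p = 0.00222). Homer2 had 56.1, 97.1 and 54.6 CPM in wild-type brain and 31.8, 45.1 and 64.7 CPM in liver, and these groups overlapped. Its log2 fold change of 0.56 ± 0.31 (SE, edgeR adjusted p = 0.131) did not pass in wild type, although without liver wild-type replicate 3 it did (0.84, adjusted p = 0.0457). Over the fits without 1 library it fell as low as 0.17, and the edgeR adjusted p rose as high as 0.583. In knockout mice it passed at 0.72 ± 0.25 (SE, edgeR adjusted p = 0.0289), but not without brain replicate 2 or 3 or liver replicate 1 or 2 (adjusted p of 0.101 to 0.120). Shank2, known from epithelia and neurons, had 243, 272 and 190 CPM in wild-type brain against 63.1, 59.1 and 50.6 CPM in liver (log2 fold change 2.04 ± 0.16 SE). The X-linked Dlg3, encoding SAP102, and the widely expressed Dlgap4 followed with log2 fold changes of 2.17 ± 0.20 and 2.75 ± 0.16 (SE) in wild type and 2.31 and 2.83 in knockout.

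**Figure D3:**
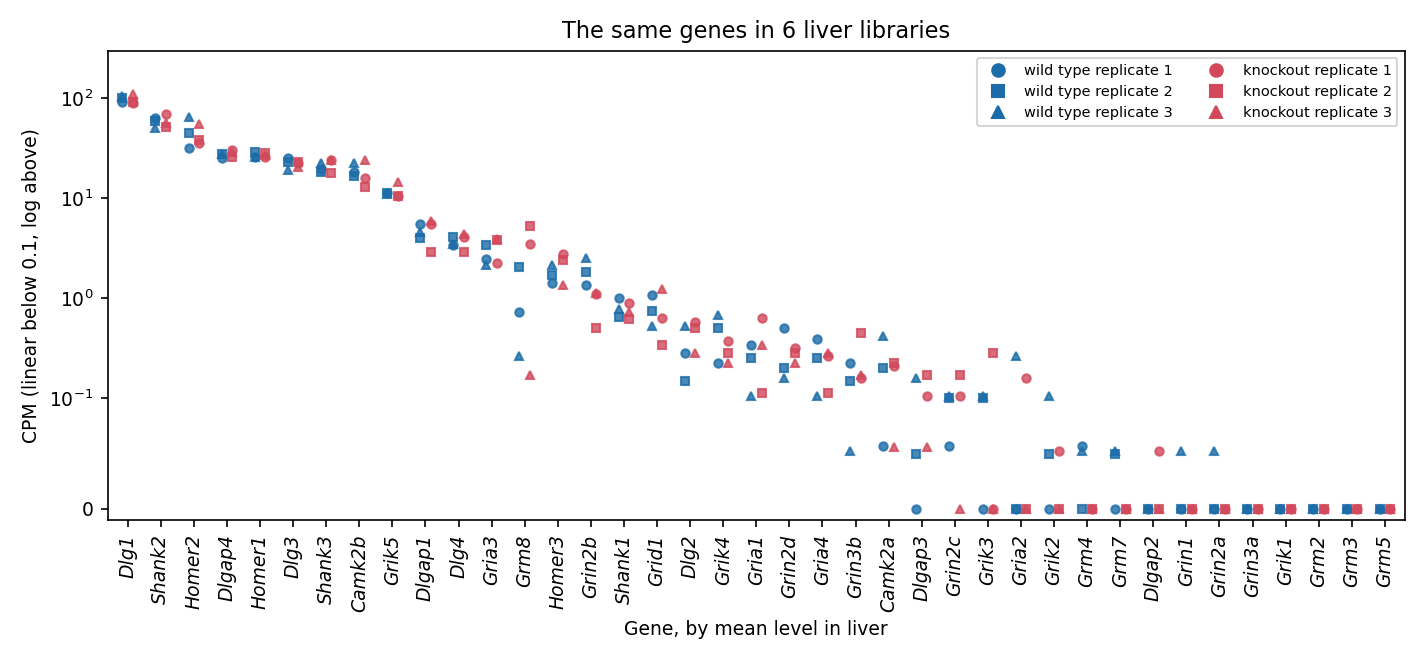
CPM of the 39 genes in each of the 6 liver libraries, ordered by mean level (axis linear below 0.1 and logarithmic above), with blue for wild type and red for knockout. Dlg1, Shank2 and Homer2 lie highest, 5 genes lie at 0 in every library, and the Grm8 points span from 0.168 to 5.23 CPM.

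In liver itself, 9 of the 39 genes had at least 100 counts in every library: Grik5, Dlg1, Dlg3, Shank2, Shank3, Homer1, Homer2, Dlgap4 and Camk2b. Only 1 of these 9, Grik5, encodes a receptor subunit, at 10.4 to 14.4 CPM. Homer1 was narrow at 25.6 to 29.1 CPM, while Shank3 had 18.1 to 24.3 CPM and Camk2b 13.0 to 24.4 CPM. A further 8 (Grin1, Grin2a, Grin2c, Grik2, Grm4, Grm7, Dlgap2 and Dlgap3) never exceeded 3 counts in a liver library, 5 were at 0, and 17 lay between. The 39 genes took 1.13% to 1.59% of all counts in brain and 0.0229% to 0.0294% in liver.

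Loss of Vaultrc5 was then compared within each tissue. In brain, edgeR called 0 of the 38 genes tested and 0 of all 18075 (0%), and no gene of the set reached an unadjusted p under 0.05, against 0.675% of all genes. The DESeq2 Wald test called 0 of the 38 and 0 over all genes. It also had 0 of the 38 at an unadjusted p under 0.05, against 0.43% of all genes. In none of the 38 did the 3 knockout libraries lie wholly above (2.09% of all genes) or below (2.14%) the wild-type ones. The log2 fold changes ran from -0.26 to 0.33 with a median of 0.09 beside -0.01 over all genes, 31 above 0 and 7 below, and their median SE was 0.21. Without wild-type replicate 2, 8 of the 38 reached an unadjusted p under 0.05, all higher in knockout, against 3.32% of all genes, and the median was 0.25. Without wild-type replicate 1, Grin3a alone did so, lower in knockout, against 1.61% of all genes. The median was 0.02 without wild-type replicate 1, 0.03 without wild-type replicate 3, 0.15 without knockout replicate 1 and 0.045 without knockout replicate 2. It was 0.23 with replicates 1 and 3 alone and 0.11 with the cerebellum marker level as a covariate, and again no gene was called. In both of these fits 0 of the 38 reached an unadjusted p under 0.05, against 1.96% and 1.69% of all genes.

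The smallest unadjusted p-values in brain belonged to Shank3, Grin3a and Grik3. Shank3, the scaffold gene deleted in Phelan-McDermid syndrome, had 201, 210 and 175 CPM in wild type and 227, 206 and 239 CPM in knockout, with overlapping groups. Its log2 fold change was 0.19 ± 0.11 (SE, 95% interval -0.07 to 0.44, edgeR adjusted p = 1.00). It was 0.12 without wild-type replicate 3 and 0.31 with replicates 1 and 3 alone. Grin3a, the gene of a glycine-binding subunit that lowers calcium entry, had 33.0, 41.7 and 47.8 CPM in wild type and 34.0, 32.3 and 37.1 CPM in knockout, with a log2 fold change of -0.26 ± 0.15 (SE, 95% interval -0.62 to 0.10, edgeR adjusted p = 1.00). Without wild-type replicate 3, the library with hindbrain markers, it was -0.12, and without wild-type replicate 1 it was -0.39. Grik3, a kainate subunit gene, had 76.9, 111 and 84.3 CPM in wild type and 102, 116 and 92.1 CPM in knockout, a log2 fold change of 0.18 ± 0.16 (SE, edgeR adjusted p = 1.00) that was 0.07 without wild-type replicate 1 and 0.35 without wild-type replicate 2.

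**Figure D4:**
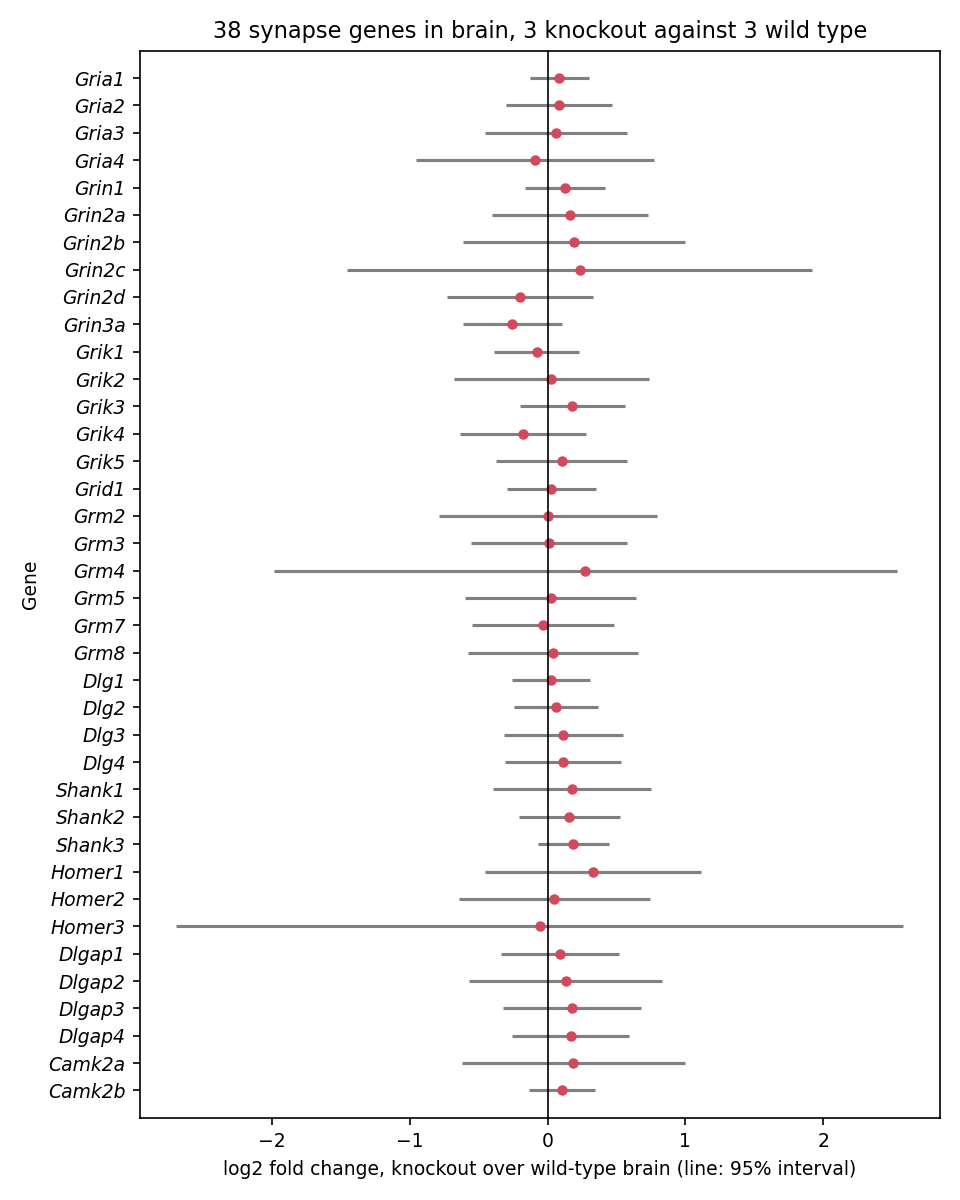
log2 fold change of knockout over wild-type brain for the 38 genes tested, with points for the estimate and lines for the 95% interval. The intervals cover 0 for every gene, and they are widest for Homer3, Grm4 and Grin2c, the genes that varied most between libraries of each genotype.

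The precision of the comparison differed between genes. The 95% interval of the log2 fold change ran from -0.13 to 0.30 for Gria1, from -0.13 to 0.35 for Camk2b, from -0.17 to 0.42 for Grin1 and from -0.26 to 0.31 for Dlg1. For Camk2a it ran from -0.62 to 1.00 and for Grin2b from -0.62 to 0.99, although both have many counts. It was wider still for Grin2c (-1.46 to 1.92), Grm4 (-1.99 to 2.53) and Homer3 (-2.69 to 2.58). For those 3 genes the interval of this fit reached past a 2-fold change in both directions, while for Gria1 and Camk2b it lay within 2-fold. The largest fitted change, that of Homer1 at 0.33 ± 0.33 (SE), came from 136, 303 and 226 CPM in wild type and 191, 325 and 325 CPM in knockout.

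In liver 17 of the 39 genes had enough counts to be tested. By edgeR 0 of the 17 were called, as were 0 of all 15329 genes (0%), and the DESeq2 Wald test called 0 of the 17 and 10 over all genes. At an unadjusted p under 0.05, either tool had 1 gene of the set, Grin2b, against 3.50% of all genes by edgeR and 2.78% by DESeq2. That count fell to 0 without wild-type replicate 2 or 3 or knockout replicate 2, and rose to 3 (Camk2b, Grin2b and Grm8, against 7.22% of all genes) without knockout replicate 3. With the replicate number as a block it was 2, Grin2b and Grm8 (6.41% of all genes). The knockout libraries lay wholly below the wild-type ones for 1 of the 17 (5.45% of all genes), again Grin2b, and wholly above for none (4.16%). Over the 17 genes the median log2 fold change was 0.03, beside 0.005 over all genes.

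Grin2b had 24, 37 and 48 counts in wild-type and 21, 9 and 20 counts in knockout liver, or 1.35, 1.84 and 2.51 CPM against 1.10, 0.506 and 1.12 CPM. Its log2 fold change was -1.05 ± 0.39 (SE, 95% interval -1.95 to -0.15), with an unadjusted p of 0.0275 and an edgeR adjusted p of 0.992. Leaving out 1 library at a time gave -1.24 to -0.77, the latter without knockout replicate 2, the library with the most Kupffer cell marker RNA, and the adjusted p was between 0.677 and 1.00. Grm8, a presynaptic group III receptor gene, varied more within each genotype, with 0.730, 2.04 and 0.262 CPM in wild type and 3.47, 5.23 and 0.168 CPM in knockout. In both genotypes replicate 2 was highest and replicate 3 lowest. Kupffer cell markers summed to 112, 154 and 136 CPM in wild type and 154, 291 and 122 CPM in knockout. They too were highest in replicate 2 of each genotype, but in wild type they were lowest in replicate 1, unlike Grm8. Their part in the Grm8 values was not tested. For Grm8 the log2 fold change was 1.54 ± 1.13 (SE, edgeR adjusted p = 0.992). It was 0.82 without knockout replicate 2 and 2.57 without wild-type replicate 2. Gria3 had 2.47, 3.38 and 2.15 CPM in wild type and 2.26, 3.82 and 3.86 CPM in knockout, a log2 fold change of 0.32 ± 0.30 (SE, edgeR adjusted p = 0.992) that ran from 0.19 to 0.55 over the fits without 1 library. Of the 9 genes with at least 100 counts in every liver library, Homer1 had the narrow 95% interval of -0.20 to 0.24 and Dlgap4 that of -0.12 to 0.29.

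The difference between the brain and the liver effect of the knockout was tested as an interaction in all 12 libraries. edgeR called 0 of 38 genes and 0 of all 20141 (0%), with 1 gene of the set, Grin2b, at an unadjusted p under 0.05 (2.43% of all genes). The DESeq2 Wald test called 0 of the 38 and 1 over all genes. It too had Grin2b alone of the set at an unadjusted p under 0.05 (2.48% of all genes). The edgeR count at an unadjusted p under 0.05 was 0 with DESeq2 size factors. It was also 0 without brain wild-type replicate 1 or 3, brain knockout replicate 2 or 3, or liver wild-type replicate 2 or 3. Without liver knockout replicate 2 the gene was Grik3 (2.41% of all genes), and without liver knockout replicate 3 there were 3, Camk2b, Grin2b and Grm8 (3.99% of all genes). For Grin2b the interaction, brain effect minus liver effect, was 1.26 ± 0.56 (SE, edgeR adjusted p = 1.00). Grm7, with 2 counts in wild-type and 0 in knockout livers, and Grm8 came next with 2.74 ± 1.63 and -1.48 ± 1.05 (SE, edgeR adjusted p = 1.00 for both). Grm7 had 1.75 by DESeq2, and Grm8 had -0.79 without liver knockout replicate 2 and -2.53 without liver wild-type replicate 2. For the many receptor genes at or near 0 in liver the interaction has no liver effect to compare.

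A further 41 genes of the glutamate synapse were followed beside the set: auxiliary subunits of AMPA and kainate receptors, glutamate transporters, enzymes of glutamate metabolism, and other postsynaptic proteins. In each genotype 39 of the 41 were higher in brain and 2 lower by edgeR's adjusted p, against 43.9% of all genes higher and 34.7% lower in wild type and 43.5% and 35.2% in knockout. The median log2 fold change was 7.97 in wild type and 8.11 in knockout, or 7.08 and 7.31 with the 9 and 7 genes at 0 in liver set to their bound. Within liver only 19 of the 41 had enough counts to be tested, so the filter bears on the count of 39 as well. The 2 lower ones were Slc17a8 and Glul. Slc17a8, the gene of the vesicular transporter VGLUT3, had 1.28, 2.62 and 3.20 CPM in wild-type brain and 23.6, 30.9 and 40.8 CPM in wild-type liver, a log2 fold change of -3.73 ± 0.35 (SE, edgeR adjusted p = 3.11e-05). Glul, the gene of glutamine synthetase, used by astrocytes and by the hepatocytes around the central vein, had a log2 fold change of -0.57 ± 0.14 (SE, edgeR adjusted p = 0.00609), and under scaling by library totals its sign turned to 0.27. In neither tissue was any of these genes called between knockout and wild type (0 of 41 in brain, 0 of 19 tested in liver).

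The smallest unadjusted p in brain among the 41 was that of Slc17a6, which encodes VGLUT2, the vesicular transporter of thalamus and brainstem. It had 21.8, 16.5 and 55.1 CPM in wild type and 13.1, 16.6 and 23.9 CPM in knockout, so the wild-type replicate with hindbrain markers stood highest. Its log2 fold change of -0.82 ± 0.48 (SE, edgeR adjusted p = 1.00) became -0.10 without that library. Baiap2, a Shank-binding actin regulator, had 0.25 ± 0.17, and Ppp1r9b, the gene of spinophilin, 0.13 ± 0.16 (SE, edgeR adjusted p = 1.00 for both). Without wild-type replicate 1 these were 0.13 and 0.045, and without wild-type replicate 2 they were 0.46 and 0.28; Ppp1r9b was also 0.073 without wild-type replicate 3, 0.22 without knockout replicate 1 and 0.079 without knockout replicate 3. In liver the log2 fold change was 0.61 ± 0.27 for Cacng7, an AMPA receptor auxiliary subunit gene with the smallest unadjusted p of the list there, and 0.71 ± 0.48 for Nrgn, the gene of neurogranin (SE, edgeR adjusted p = 0.992 for both). Nrgn had 0.36 without wild-type replicate 2 and 0.31 without knockout replicate 3. Cacng7 had 0.899, 0.995 and 1.20 CPM in wild-type and 1.79, 1.46 and 1.46 CPM in knockout liver, without overlap.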

How the data were processed

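Per the labels' protocols, TRIzol RNA was cleared of DNA, and stranded total RNA libraries depleted of ribosomal RNA were read as single ends. Expected counts of each gene in each library were deposited by the authors, neither normalized nor pooled. The submitters' processing notes name cutadapt, STAR and the build mm10; versions, the program that counted reads and its strand setting are not given in the sources used here. Of the 39 genes, Gria2 and Grin2a had fractional counts, 7 share exon sequence with another gene on the same strand and 13 on the opposite strand, so their counts may include reads of neighbours. Identifiers and symbols of all 55450 genes matched GENCODE M21 (GRCm38), which gave exon lengths.

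Expected counts were rounded and tested with edgeR 4.0.16 (R 4.3.3; TMM, robust quasi-likelihood F-test, filterByExpr with a minimum count of 10 and a minimum total of 15, Benjamini-Hochberg over all genes tested, threshold 0.05), each comparison on its own 6 libraries and the interaction on 12. SE is the absolute log2 fold change over the square root of F. CPM use TMM sizes over all 12 libraries. Replicate pairs differed by 27.2 to 228 times the degrees of freedom in a chi-square comparison, so no pair looked like copies of 1 library, and each library was counted as 1 replicate; this does not show separate animals.

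The 39 genes, the list of 41 and the marker lists were chosen with earlier results of these data known. Full statistics are given for the 3 genes with the smallest unadjusted p in each knockout comparison and the interaction, the 5 largest and 5 smallest tissue folds, genes not called or higher in liver, and levels for the 10 highest, 5 lowest and 5 most variable genes in brain; other genes named with values were chosen after their values were seen. For 1 gene of the list of 41 the result is not reported here. Replicate numbers come from the titles. Deviations of wild type and knockout with the same number correlated at 0.33, 0.38 and 0.40 in liver (13019 genes) and at 0.73, 0.70 and -0.03 in brain (16259 genes). The labels do not say what the numbers mark, so the main fits of both tissues took no pairing. Their SE, intervals and p-values therefore ignore any pairing that exists, and the replicate block was run only as an alternative. Alternatives were DESeq2 size factors, library totals, the DESeq2 1.42.0 Wald test, no filter, a filter at 1 CPM on average, robust estimation off, all 12 libraries in 1 fit, the replicate block and each replicate left out. A fit on replicates 1 and 3 and a fit with the log level of the cerebellum markers as covariate were added for brain after seeing the data. Figures used matplotlib 3.10.9.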

Additional observations from a re-analysis of the deposited data

How the results depend on the processing

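Of the 543 values of single genes recomputed under the alternatives, 535 kept their direction and their side of the threshold. Glul turned from lower to higher in brain with library totals (0.27). Homer2 passed in wild type with library totals (1.38, adjusted p = 0.00363) and without liver replicate 3 and failed in knockout in 4 fits without 1 library, and Grm4 failed in knockout with no filter (adjusted p = 0.0545). The counts of genes of the set called stayed at 37 or 38 in wild type between tissues, at 35 to 38 in knockout, and at 0 in both knockout comparisons and the interaction under every alternative run. Their median tissue difference in wild type was 10.19 with library totals, 9.26 with no filter and 9.12 to 9.58 over fits without 1 library, and in knockout 10.45 with library totals. In brain the median knockout change was 0.23 with replicates 1 and 3 and 0.021 to 0.254 without 1 library. The median interaction was -0.019 to 0.263 without 1 library. The 8 genes at an unadjusted p under 0.05 in brain without wild-type replicate 2 were Camk2a, Dlg3, Dlgap3, Gria3, Grik3, Grin1, Grin2a and Grm2.

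Over all genes, liver knockout calls numbered 10 by the DESeq2 Wald test, 4 with no filter, 2 with the replicate block and 0 to 1 without 1 library, and interaction calls 1 by the DESeq2 Wald test and 2 with the replicate block; the cause was not tested. The replicate block changed no call of the set. It left Grin2b and Grm8 uncalled in liver (adjusted p of 0.754 and 0.727), and it brought Grm4 and Homer1 in brain, Grm8 in liver, and Grm8 and Homer1 in the interaction to an unadjusted p under 0.05 (2.25%, 6.41% and 4.50% of all genes in these fits).

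With 3 libraries a group, brain intervals were wide for genes such as Camk2a and Grm4 although their counts were high. These genes moved with the region markers, whose part in those intervals was not tested beyond the covariate fit. In liver, 5 of the 39 genes had 0 counts and 8 others at most 3 in any library, so a fall in knockout could not be seen there.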
